A study of Caenorhabditis elegans with 4 samples.

Results

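UNC-62 binding was examined at 9 Caenorhabditis elegans genes that encode secreted or membrane-bound guidance cues and their receptors. They are unc-6, unc-40, unc-5, slt-1, sax-3, vab-1, smp-1, mab-20 and plx-1. The genes were chosen by symbol, with earlier results of these data known. They are 9 of 19971 nuclear protein-coding genes in the gene table. The deposited lists were then searched for UNC-62 regions whose midpoint lay within each gene or near it. Chromatin immunoprecipitation with sequencing (ChIP-seq) was carried out on hermaphrodite embryos of strain OP600, an unc-119(ed3) mutant carrying the integrated transgene wgIs600. That transgene carries unc-119 beside a copy of unc-62 tagged with TY1, EGFP and FLAG. The 4 samples comprise 2 UNC-62 ChIP replicates and 2 Input replicates, which share this strain, stage and a growth temperature of 20 °C. No list of Input regions was analysed here.

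UNC-62 is a homeodomain protein of the MEIS/Homothorax class, which binds DNA together with PBC-class and Hox partners. Guidance cues steer migrating cells and growing axons by attraction or repulsion. Netrin, Slit, ephrins and semaphorins act through DCC and UNC5, Robo, Eph and plexin receptors in turn. In the worm embryo these systems act in axon pathfinding, cell migration and the enclosure of the embryo by epidermis. The chromatin came from whole embryos, so a region cannot be assigned to a cell type, and the tagged protein was made from a transgene. The replicates' derivation from separate cultures is not stated.

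Each list gives a start, an end and 1 unnamed value per region, here called the deposited value. It was read as a p-value or q-value from the authors' peak caller, so a smaller value marks a stronger region within its own list. The series list held 7964 regions, the replicate 1 list 7782 and the replicate 2 list 3138, with values up to 0.000997, 0.00999 and 0.000998. Read depth is unknown, so no counting error can be given. Values depend on depth as well as enrichment, and values of different lists are set side by side only as a record. The gene table lies on WBcel235 and the regions on WS220, which are taken to be offset by about 100 bp at most at these genes. Distances to genes are therefore given to 0.1 kb. The table gives no strand. A region inside a gene or within 1 kb of either end was counted in either orientation. Regions 1 to 5 kb outside are described apart, because such a region is upstream only on 1 of the 2 sides.

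All 9 genes carried at least 1 region of the series list, in the gene or within 1 kb. The same held for 28.1% of all protein-coding genes, and for 57.3% of the 1903 genes whose window was at least as long as the shortest window among the 9 (8.9 kb at mab-20). The 9 genes held 35 regions in 151.8 kb of window, or 2.31 per 10 kb, against 0.858 per 10 kb at the long genes and 0.77 per 10 kb at all genes. By gene, the counts were 11 at vab-1, 8 at unc-5, 5 at sax-3, 4 at unc-40, 2 each at unc-6 and plx-1, and 1 each at slt-1, smp-1 and mab-20. A further 11 regions lay 1 to 5 kb outside the genes. With 5 kb taken on both sides, 52.2% of all protein-coding genes had a region, as did all 9. Allowing 5 kb upstream and 1 kb downstream, the total is 36 if each gene is oriented to give the lower count and 45 if each is oriented to give the higher. No test was made of these counts, because the genes were chosen as a list.

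**Figure D1:**
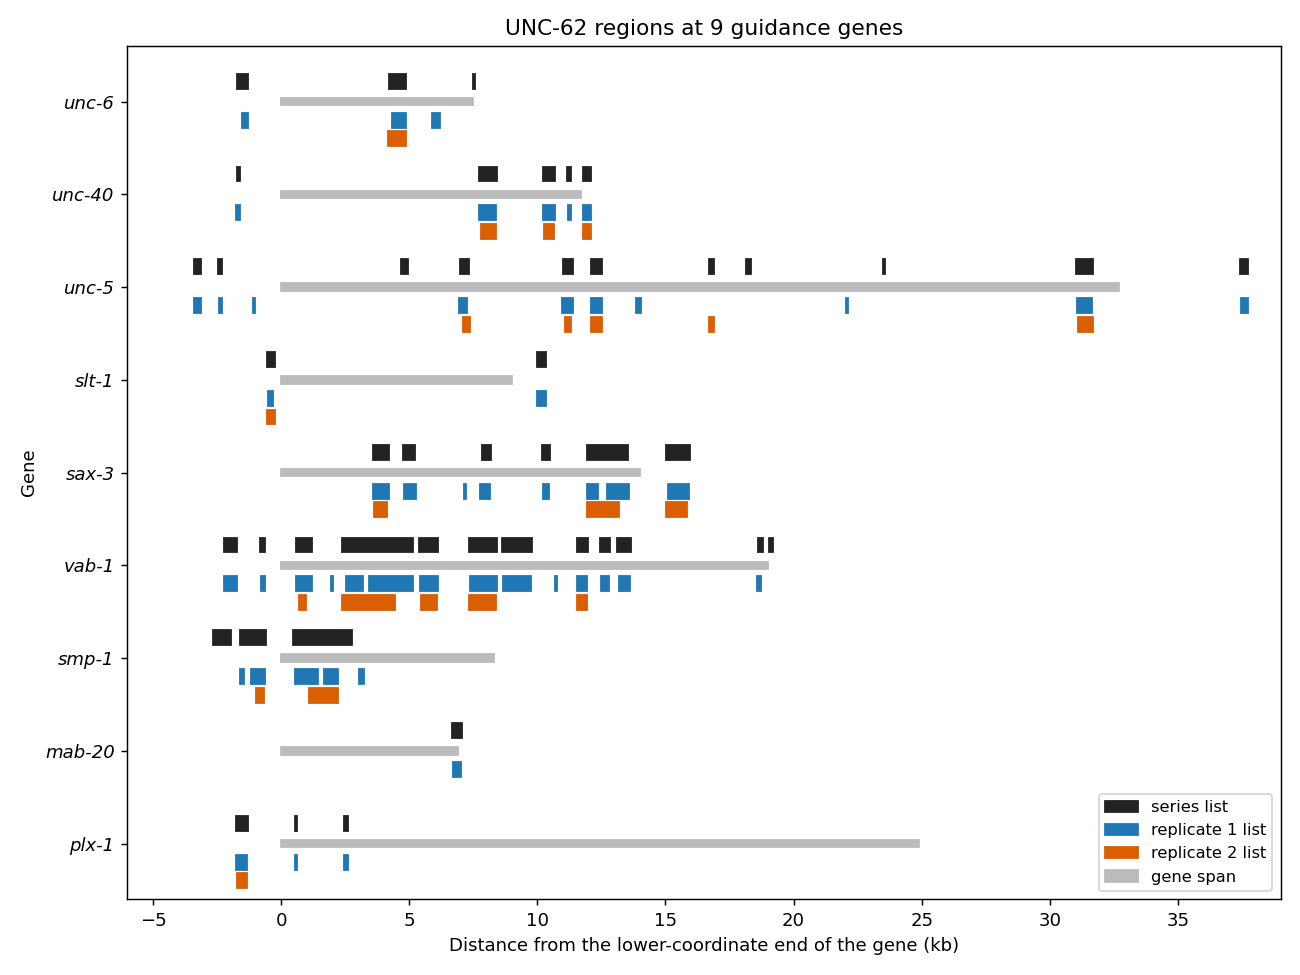
UNC-62 regions at the 9 guidance genes, drawn as distance in kb from the lower-coordinate end of each gene (grey bar). Black boxes are series regions, blue boxes replicate 1 regions and orange boxes replicate 2 regions, out to 5 kb on either side. Boxes are dense over vab-1, whereas most of the length of plx-1 holds none.

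In the series list the ligand genes carried fewer regions than most of the receptor genes. Pooled density was lower at the ligands in every list, but the size of the difference depended on the list and on vab-1. The 4 ligand genes (unc-6, slt-1, smp-1, mab-20) held 1 to 2 regions each, 5 in all. The 5 receptor genes (unc-40, unc-5, sax-3, vab-1, plx-1) held 2 to 11 each, 30 in all. Ligand windows added up to 39.6 kb and receptor windows to 112.2 kb. Per 10 kb the densities were 1.26 at the ligands and 2.67 at the receptors, or 2.08 with vab-1 left out. In the replicate 1 list the ligands held 8 regions, 4 of them at smp-1, or 2.02 per 10 kb, against 2.85 at the receptors and 2.08 without vab-1. In replicate 2 the densities were 1.01, 1.34 and 1.096 in the same order. With vab-1, the densest receptor gene, left out and all 4 ligands kept, ligands and receptors were thus close in both replicate lists. In replicate 1, 2 of the 4 smp-1 regions overlapped the same series region. No density was computed with smp-1 left out. By coverage the ligand smp-1 came second among the 9 genes, with 26.2% of its window covered in the series list. No difference between ligands and receptors was tested.

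unc-6 encodes netrin, a secreted laminin-related cue that directs migrations along the dorsoventral axis. Its main region was inside the gene, X 6893870 to 6894555 (686 bp), 4.5 kb from the lower-coordinate end and 2.9 kb from the other. The deposited value was 2.08e-54 in the series list, rank 203 of 7964. Replicate 1 had 7.25e-31 there, rank 293 of 7782, and replicate 2 had 1.06e-24, rank 102 of 3138. The region was thus near the top of every list. The second unc-6 region, X 6897154 to 6897235, was 82 bp wide at the higher-coordinate end, with a value of 0.000551, and no replicate list contained it. A region 1.5 kb outside the lower-coordinate end, at X 6887955 to 6888402, had values of 6.98e-08 in the series list and 5.13e-06 in replicate 1, with none in replicate 2.

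unc-40 encodes the DCC netrin receptor, which mediates attraction and also takes part in repulsion with UNC-5. Its 4 regions lay toward 1 end of the gene, between 3.6 kb inside the higher-coordinate end and 0.3 kb outside it. The strongest was I 5690055 to 5690529 (475 bp), 1.2 kb inside that end. Its values were 9.98e-43 in the series list (rank 357), 2.87e-26 in replicate 1 and 3.04e-12 in replicate 2. Just beyond the same end was I 5691616 to 5691948 (333 bp), with 3.71e-28 in the series list, 3.08e-15 in replicate 1 and 7.34e-11 in replicate 2. This region also lay 0.5 kb from npp-7, a nucleoporin gene, so it may equally be counted to that gene. Deeper in unc-40, I 5687580 to 5688265 (686 bp) had 7.14e-18, with 2.1e-09 in replicate 1 and 1.79e-05 in replicate 2. The remaining region, 143 bp wide, had 3.12e-06 and was found in replicate 1 only. A weak region 1.6 kb outside the other end (7.76e-05) fell within 1 kb of both aprt-1 and dnj-21.

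unc-5 encodes the UNC5 netrin receptor, required for migration away from netrin. At 32.7 kb it is the longest of the 9 genes, and all 8 of its counted regions were inside it. They spanned most of its length, from 4.8 kb inside the lower-coordinate end to 1.3 kb inside the other. By far the smallest deposited value belonged to IV 5507747 to 5508196 (450 bp), 12.3 kb from the lower-coordinate end, whose series value was 5.17e-62 (rank 149). Replicate 1 had 2.06e-36 at this place (rank 204) and replicate 2 had 6.7e-26 (rank 92). Also strong was IV 5526699 to 5527348 (650 bp), where values were 1.27e-30 in the series list, 4.87e-17 in replicate 1 and 5.45e-13 in replicate 2. A neighbour of the strongest region, IV 5506675 to 5507049, had 1.09e-15 in the series list. Replicate 1 ranked it 1134 of 7782 and replicate 2 only 2789 of 3138, near the limit of that list. Of the other 5 regions, which had values of 3.11e-07 to 0.000927, 1 was in both replicates, 1 in replicate 2 only, and 3 were unmatched. Outside the gene, 2 regions lay 2.4 and 3.3 kb beyond the lower-coordinate end. On the other side, 1 lay 4.9 kb out and overlapped fem-1, a sex determination gene. None of these 3 was in replicate 2.

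slt-1 encodes Slit, a secreted repellent. It had no region placed inside the gene, alone among the 9, although the only mab-20 region was centred on a gene end. Its counted region, X 14673762 to 14674092 (331 bp), was 0.4 kb outside the lower-coordinate end. The deposited values were weak in every list, 8.29e-07 in the series list (rank 4474), 0.00185 in replicate 1 (rank 6164) and 0.000245 in replicate 2 (rank 2519). On the other side, 1.2 kb out, X 14684320 to 14684678 had 2.48e-10 in the series list and 3.04e-08 in replicate 1, with none in replicate 2. That region was 0.4 kb from csq-1, the calsequestrin gene, and so nearer to it than to slt-1.

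sax-3 encodes the Robo receptor for Slit. All 5 counted regions were inside the gene. The smallest value was at X 3455505 to 3456129 (625 bp), 3.9 kb from the lower-coordinate end, with 1.14e-44 in the series list (rank 315), 2.1e-32 in replicate 1 and 9.66e-14 in replicate 2. Almost as strong was a broad region near the other end, X 3463838 to 3465465 (1628 bp), with 1.02e-43 (rank 326). Replicate 1 split this region into 2, the stronger with 1.98e-14, and replicate 2 covered it with 1 region of 1227 bp and 4.58e-15. Here the replicate 2 value was the smaller of the pair. The 3 regions between them had 9.48e-18, 5.87e-09 and 1.23e-06 and were found in replicate 1 only. A broad region 1.5 kb beyond the higher-coordinate end, X 3466929 to 3467851 (923 bp), was also in both replicates. It had 6.52e-29 in the series list, 1.67e-21 in replicate 1 and 2.96e-07 in replicate 2.

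vab-1 encodes the worm's Eph receptor, a receptor tyrosine kinase that takes ephrins as ligands and acts in epidermal enclosure as well as in axon guidance. It had the highest number of regions of the 9 genes, 11 in a window of 21.0 kb. Only 8 of the 19971 protein-coding genes, vab-1 included, had 11 or more. Regions covered 39.6% of the vab-1 window in the series list, 35.0% in replicate 1 and 21.1% in replicate 2. Of the 1903 long genes, 4 had a window covered to that extent or more in the series list, again with vab-1 included. Within the gene, 8 regions followed each other from II 4572602 to 4585637, a stretch of 13.0 kb picked after its values were seen. The series list covered 59.2% of this stretch, replicate 1 54.1% and replicate 2 34.01%.

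Strength at vab-1 was more moderate than its coverage. Its strongest region, II 4574386 to 4577148 (2763 bp), had 2.9e-39 in the series list (rank 421), behind the strongest regions of unc-6, unc-40, unc-5, sax-3 and smp-1. It was the widest region at any of the 9 genes. Replicate 1 covered it with 2 regions, the stronger with 2.87e-22, and replicate 2 with 1 region of 2070 bp and 3.45e-14. The next, II 4579322 to 4580438 (1117 bp), had 1.13e-34, with 3.61e-24 in replicate 1 and 3.61e-11 in replicate 2. Directly beside it, II 4580640 to 4581789 (1150 bp) had 1.16e-17 and 1.37e-12 in replicate 1 but was absent from replicate 2. Of the 11 regions, 5 were in both replicates, 5 in replicate 1 only, and 1 was unmatched. The 2 regions at the higher-coordinate end lay within 1 kb of ipla-1, a phospholipase gene that overlaps this end. Their values were 0.000915 and 2.28e-08. At the other end, II 4571187 to 4571381 lay 0.7 kb outside the gene with 2.18e-08, and a further region 2.0 kb outside had 2.34e-13. Both were in replicate 1 only.

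smp-1 encodes a transmembrane semaphorin, a ligand of the plexin PLX-1. In the series list it carried the strongest region of any of the 9 genes, I 14807931 to 14810221 (2291 bp). The midpoint was 1.6 kb inside the lower-coordinate end. In each replicate list a region of unc-5 was the strongest at the 9 genes. The series value of the smp-1 region was 1.26e-64 (rank 128). Replicate 1 held 2 regions here of 913 and 550 bp, the stronger with 4.33e-24 (rank 481), and replicate 2 held 1 region of 1149 bp with 2.47e-24 (rank 109). A broad region sat just outside, I 14805863 to 14806864 (1002 bp), with its midpoint 1.1 kb from the gene. It had 1.62e-20 in the series list, 6.06e-14 in replicate 1 and 7.74e-06 in replicate 2. With the genes moved by 100 bp toward lower coordinates, this region fell within 1 kb and the count of smp-1 became 2. A weaker one, 2.3 kb out (0.00058), was in neither replicate.

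mab-20 encodes a secreted semaphorin known for preventing wrong contacts between cells in the embryonic epidermis and the male tail. Its window held 1 region, I 1651269 to 1651636 (368 bp), centred on the higher-coordinate end of the gene. The value was 6.77e-13 in the series list (rank 2205) and 4.69e-08 in replicate 1 (rank 2377). Replicate 2 had no region in the window, and no other series region lay within 5 kb of the gene.

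plx-1 encodes the plexin receptor for SMP-1. Although its gene is 24.9 kb long, regions covered 0.722% of its window, against a median of 1.17% at the long genes. Its 2 counted regions were weak and narrow. IV 960066 to 960081 was 16 bp wide with 3.66e-06 (rank 4937), and IV 961976 to 962153 was 178 bp wide with 0.000619 (rank 7567). Each was in replicate 1 and absent from replicate 2. A stronger region, IV 957745 to 958235 (491 bp), was 1.5 kb outside the lower-coordinate end. It had 3.97e-24 in the series list (rank 932), 2.27e-17 in replicate 1 and 4.26e-08 in replicate 2, and no other protein-coding gene lay within 1 kb of it. Whether it is upstream of plx-1 depends on the strand, which the table does not give.

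**Figure D2:**
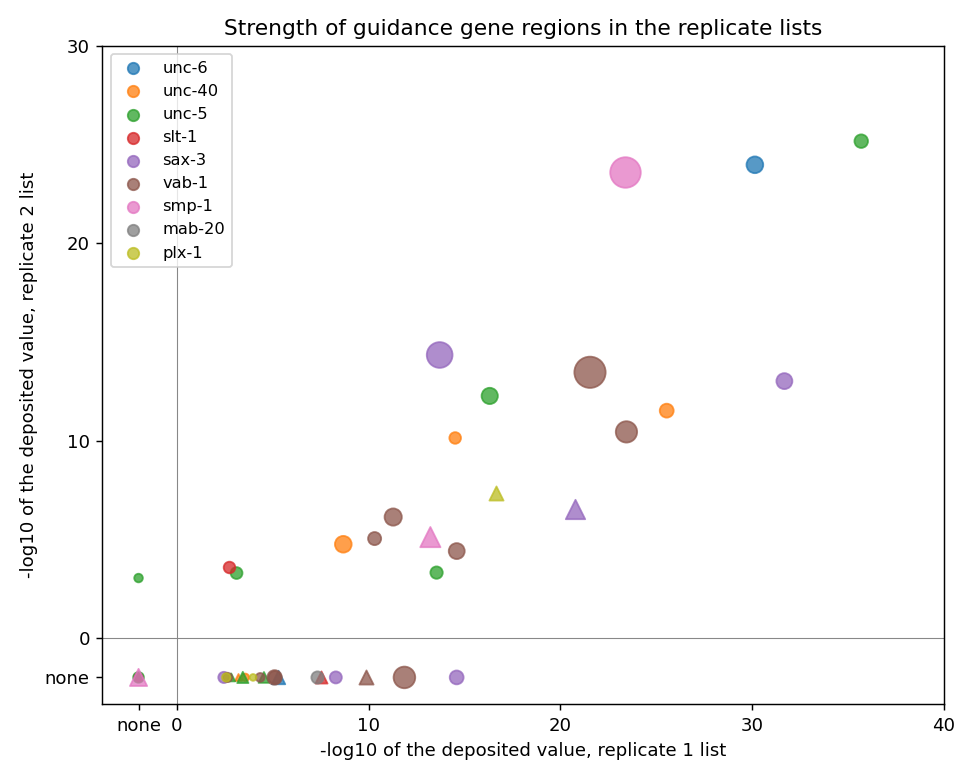
Deposited values of the regions at the 9 genes in the replicate lists, on the −log10 scale, with replicate 1 on the horizontal and replicate 2 on the vertical axis. Circles are regions in a gene or within 1 kb, triangles regions 1 to 5 kb outside; size follows series width, and points at "none" have no overlapping region in that list. The points of unc-5, unc-6 and smp-1 at upper right are the strongest in replicate 2.

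Replicates were compared over the 35 counted regions by overlap of at least 1 bp. Both replicates contained 17 of them (48.6%, exact Clopper-Pearson 95% interval 31.4 to 66.0%), replicate 1 alone 12, replicate 2 alone 1, and 5 were matched in no replicate. Over all series regions 36.7% were in both, which lies inside that interval. The interval treats regions as independent, although several share a gene. Regions in both replicates had a median series rank of 631 and a median width of 625 bp. For the other 18 the median rank was 4740.5 and the median width 204.5 bp. Of the 23 counted regions in the stronger 50% of the series list, 15 were in both replicates (65.2%), against 70.4% of all regions there. In the weaker 50% it was 2 of 12 (16.7%), against 2.96%. At the level of genes, 7 of the 9 had a region found in both replicates, against 11.8% of all protein-coding genes and 27.7% of the long ones. The exceptions were mab-20 and plx-1. The replicate 1 list had a region at all 9 genes (27.3% of all genes, 55.0% of long ones) and the replicate 2 list at 7 (12.4% of all, 29.1% of long). Replicate 1 also held 7 regions in these windows that no series region overlapped. Their values were 0.000359 to 0.0057.

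By their medians, the regions at the 9 genes were stronger and wider than those of the whole series list. Their median value was 6.77e-13, from 1.26e-64 to 0.000927, against a median of 1.21e-07 over all series regions. Median width was 375 bp, against 312 bp overall. The lower and upper quartiles of width were 204.5 and 637.5 bp, against 216 and 442 bp overall. Of the 35, 10 were among the strongest 10% of the list (28.6%), and 9.04% of all regions within 1 kb of a protein-coding gene were. These 10 were spread over 6 genes, with 2 each at unc-40, unc-5, sax-3 and vab-1 and 1 each at unc-6 and smp-1. Having such a region was true of 2.95% of all protein-coding genes and 9.04% of the long ones. Regions of 800 bp or wider were present at 3 genes (3 at vab-1, 1 at sax-3 and 1 at smp-1), against 1.51% of all genes and 5.36% of long ones. On the −log10 scale the median was 12.2, against 6.92 over all series regions, and 10.2 for the 24 regions left at 8 genes without vab-1. The 95% order-statistic interval of the median of the 35 was 6.51 to 17.7, which contains 6.92. That interval also treats regions as independent.

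**Figure D3:**
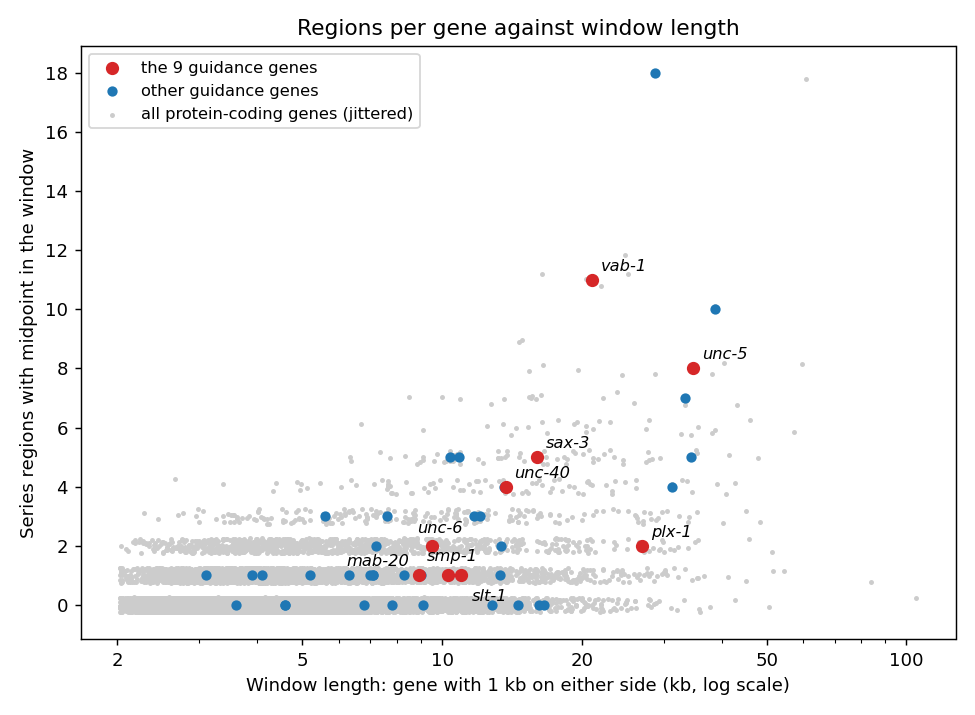
Number of series regions in the window of each gene against window length in kb on a log scale. Red points are the 9 guidance genes, blue points the other guidance genes, and grey points all protein-coding genes, jittered vertically. vab-1 and unc-5 hold 11 and 8 regions, and plx-1 holds 2 in a window of 26.9 kb.

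Of the 35 regions, 30 had their midpoint in the gene (85.7%), and 21 were at least 2 kb from both ends. Gene spans made up 88.1% of the windows, so this share is close to that of the length. At the long genes 1678 of 2347 regions were inside (71.5%, with spans making up 86.1% of the windows), and at all genes 3040 of 7963 (38.2%, with 61.4%), a region near several genes being counted for each. The strongest counted region was placed inside the gene at all but slt-1. At mab-20 it was centred on the gene end, so with an offset of up to about 100 bp its side cannot be settled. Density inside the genes was 2.24 per 10 kb, against 0.713 inside the long genes and 0.479 inside all genes. In the 1 kb outside either end it was 2.78 per 10 kb, against 1.76 at long genes and 1.23 at all genes. The density inside was thus 3.15 times that of the long genes and the density outside 1.58 times, although the second rests on 5 regions. With vab-1 left out, the inner density was 1.83 per 10 kb, from 21 regions. The outer density was then 1.875 per 10 kb, from 3 regions, and so close to the 1.76 at long genes. Within 1 kb of another protein-coding gene lay 3 of the 35 regions (8.57%), against 23.0% at the long genes and 49.7% at all genes. Exons and introns cannot be told apart here, since only gene spans were used. The genes were on X (unc-6, slt-1, sax-3), I (unc-40, smp-1, mab-20), IV (unc-5, plx-1) and II (vab-1), and 8 of the 35 regions were on X.

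**Figure D4:**
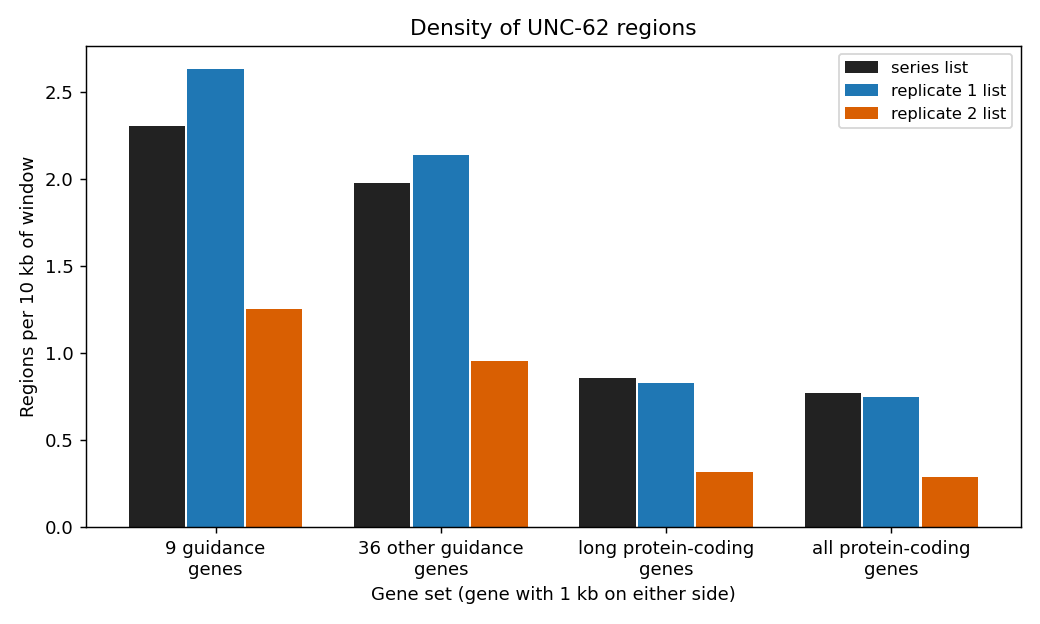
Regions per 10 kb of window (gene with 1 kb on either side) for the 9 guidance genes, 36 other guidance genes, the long protein-coding genes and all protein-coding genes. Bars start at 0 and show the series list (black), replicate 1 (blue) and replicate 2 (orange). In the series list the values were 2.31, 1.98, 0.858 and 0.77.

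A further list of 37 genes covers other cues, receptors, co-receptors and intracellular effectors of the same guidance steps, of which 36 were found in the gene table. Of these, 26 had a series region in the gene or within 1 kb, 18 had one found in both replicates, and 11 had one among the strongest 10%. The shares were 72.2%, 50.0% and 30.6%, beside 57.3%, 27.7% and 9.04% of the long genes and 28.1%, 11.8% and 2.95% of all protein-coding genes. The median window was 9.08 kb in this list, 12 kb at the long genes and 4.01 kb at all genes. Their density was 1.98 regions per 10 kb. Replicate 1 listed regions at 27 and replicate 2 at 18 of them.

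The ephrin genes were uneven. efn-1 (vab-2), with a window of 7.6 kb, had 3 regions covering 36.4% of it, the strongest with 1.04e-43 in the series list, 9.35e-30 in replicate 1 and 1.4e-14 in replicate 2. efn-2 had 1 region (4.23e-10, in both replicates). efn-4 had 5, with a smallest value of 2.71e-13, and none of them was in both replicates. efn-3 had none. Other cues and receptors of these families differed in window length. smp-2, a second transmembrane semaphorin, had 2 regions in a window of 7.2 kb. plx-2, a plexin that binds MAB-20, had 1 in 9.0 kb. madd-4, a secreted partner of netrin signalling, had 1 in 13.3 kb. None of these regions was in both replicates.

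Among effectors, unc-76, the FEZ-family axon outgrowth gene, had the strongest region of the list, V 15070957 to 15071944 (988 bp) just outside the gene. Its values were 1.81e-82 in the series list (rank 73), 3.31e-55 in replicate 1 and 1.05e-34 in replicate 2. The widest of these genes' strongest regions was at unc-115, an actin-binding abLIM protein gene, where X 10146338 to 10149678 (3341 bp) had 4.08e-51. mig-10, the lamellipodin gene that acts downstream of UNC-40, had 18 regions in a window of 28.7 kb, 10 of them in both replicates. ptp-3, a LAR-type receptor phosphatase gene, had 10 regions and a smallest value of 4.68e-48. The smallest values were 3.68e-45 at unc-33 (a CRMP homologue), 1.24e-40 at unc-73 (the Trio exchange factor), 1.15e-33 at max-1, 2.3e-33 at sdn-1 (syndecan), 4.02e-33 at unc-44 (ankyrin) and 8.83e-32 at madd-2 (a tripartite-motif protein). No series region was found within 1 kb of 10 of the genes, among them unc-34 (Enabled), unc-129 (a TGF-beta family ligand) and rpm-1 (a ubiquitin ligase).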

How the data were processed

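UNC-62 ChIP and Input samples of OP600 embryos were grouped by their titles. Per the labels' protocols, worms were fixed with 2% formaldehyde, chromatin was sheared by sonication, and the fusion protein was precipitated with antibodies to GFP. Regions were called with PeakSeq on WormBase WS220, per the file headers and source column. The authors deposited 1 unnamed p-value or q-value per region; which of them it is, the PeakSeq version, the aligner and the making of the series list were not given in the sources used here. Depth is unknown.

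Regions were placed by midpoint on gene spans from a RefSeq table (WBcel235, protein-coding, mitochondrial genes left out). The planned window of 5 kb upstream needs a strand, which the table lacks, so the window was the gene with 1 kb on either side, and regions 1 to 5 kb out were kept apart. Distances to a 5′ end and promoter motifs were not run. Lists were matched by 1 bp overlap, each region with its strongest partner. All 9 genes were named, with their strongest, strongest-10% and 800 bp or wider regions. Other guidance genes were named for a region among the strongest 10%; the remaining genes named were chosen after their values were seen. Members and lists were chosen with earlier results of these data known. No test between groups was possible. Placement and matching were tested on simulated regions. Python 3.11.15, pandas 2.3.3 and SciPy 1.17.1 were used.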

Additional observations from a re-analysis of the deposited data

How the results depend on the processing

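Of 76 summary values under alternatives, 71 were within 1.5 times the main count or inside the interval of the main value. The number of regions at the 9 genes, 35 in the main count, was 57 with 10 kb on both sides and 23 with only the stronger 50% of series regions. It was 19 to 40 with 1 replicate's list alone, the lower from replicate 2. Density was 0.151 regions per kb in the stronger 50% and 0.125 to 0.263 with 1 replicate's list, against 0.231. By construction a wider window can only add regions, and a cut to the stronger 50% can only remove them. Replicate 1 gave the higher values, although its list of 7782 regions was shorter than the series list of 7964. Its deposited values ran up to 0.00999, and held to values under 0.001 it gave 31 regions. It also split some broad series regions into 2. The reasons for the differences between lists were not tested. The number of genes with a region was 8 with the gene body only (9.63% of all genes), 7 in the stronger 50% (15.5%), 7 with replicate 2 alone (12.4%) and 8 with replicate 1 held to values under 0.001 (21.5%). It was 9 under the other settings, where the share of all genes, not computed for any overlap, ran from 20.2% (values under 1e-05) to 69% (10 kb on both sides). The median −log10 value was 12.2 (95% order-statistic interval 6.51 to 17.7). It was 7.66 with 10 kb on both sides, 8.92 with 5 kb on both sides and 17.7 in the stronger 50%, where the weaker regions are left out. The share of regions in both replicates was 40% to 50.0%, against 31.6% to 37.1% over all series regions. Counts of single genes stayed within 1.5 times in 95 of 135 cases, and most of the moved ones were genes with 1 or 2 regions. Windows that put 5 kb on the lower, the higher or both sides, chosen after seeing the data, gave 43, 38 and 46 regions. The planned upstream windows of 2 and 10 kb were applied on both sides for want of a strand. No paired analysis was possible because the result comes from no test and the Input samples have no list here. How far depth limits the replicate 2 list cannot be stated.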
